A study of Mus musculus with 9 samples.

Results

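The genes described here are 10 genes of the p53 pathway and of cell cycle arrest, namely Trp53, Mdm2, Cdkn1a, Cdkn1b, Cdkn1c, Cdkn2a, Ccng1, Aen, Sesn1 and Sesn2, followed across whole mouse cochleae of 3 groups. A probe set, the group of short probes that gives 1 value on the array, was taken where the platform annotation gave it a single gene symbol among the 10. This gave 22 of the 45037 probe sets in the table and covered 9 of the 10 genes, out of 18193 genes named in all. Trp53 itself had no probe set under this rule and was not analysed here. The CR group were 15-month-old male C57BL/6 mice on calorie restriction, fed 62 kcal per week from 2 months of age, a 26% reduction. The MC group were 15-month-old control males of the same strain, and the YC group 4-month-old control males, both fed 84 kcal per week. All mice were housed singly. Each group had 3 samples, and each sample pooled 4 cochleae of 2 mice, so a value describes a small pool and not a single animal.

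p53 is a transcription factor that is held at low levels by the ubiquitin ligase Mdm2 and accumulates after DNA damage and other stress. It then switches on genes that halt the cell cycle, repair DNA, limit growth or trigger cell death, and it also switches on Mdm2, which closes a feedback loop. Cdkn1a (p21), Cdkn1b (p27) and Cdkn1c (p57) encode inhibitors of cyclin-dependent kinases, and Cdkn2a encodes both p16Ink4a, an inhibitor of Cdk4 and Cdk6, and p19Arf, which binds Mdm2. In the mouse inner ear Cdkn1b is known for keeping supporting cells and hair cells out of the cell cycle.

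The RefSeq promoter table of assembly GRCm38.p6 held 13 windows for 9 of the genes, each with 250 bases before and 50 after an annotated start, and none was used for Cdkn1c. A match to the p53 response element consensus (20 bases, no spacer, all core C and G bases kept, at most 2 mismatches, a pattern that reads the same on both strands) was found in 2 of the 13 windows, those of Cdkn1a and Ccng1. Among all 32851 windows 107 held such a match, or 0.326%. The 2 matches are shown with their flanks because they are the element by which p53 targets are recognised, with the match in capitals. Each had 1 mismatch.
Cdkn1a, chr17:29090923-29090952, plus strand: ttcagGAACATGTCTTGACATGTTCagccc
Ccng1, chr11:40755457-40755486, minus strand: aggccAGACCTGCCCGGGCAAGCCTtggca
The match began at base -51 from the start in the Cdkn1a window and at base -195 in that of Ccng1. The 250 bases before this Cdkn1a start (chr17:29090729-29090978, plus strand) place it in context.
Cdkn1a upstream: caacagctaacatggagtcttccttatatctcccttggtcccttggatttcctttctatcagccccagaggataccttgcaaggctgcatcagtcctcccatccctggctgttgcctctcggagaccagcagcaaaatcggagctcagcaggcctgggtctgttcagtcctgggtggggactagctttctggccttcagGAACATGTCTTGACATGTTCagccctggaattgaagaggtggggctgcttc
The window of the second annotated start of Cdkn1a lay further downstream, at chr17:29093519-29093818. Base -51 is thus counted from the upstream start only. That second window and the windows of the genes other than Cdkn1a and Ccng1 held no match. These are letters in a window and no measurement of binding.

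The arrays themselves differed in a way that touches the results. Although each had been scaled to nearly the same trimmed mean, the median deposited signal was 535.2 to 626.6 on the CR arrays, 843.6 to 981.3 on the MC arrays and 526.8 to 1103.9 on the YC arrays. The 3 CR arrays and YC 1 are called low-median arrays below, and the 3 MC arrays, YC 2 and YC 3 high-median arrays. No class held both CR and MC arrays, so array class and diet can be separated only through the YC arrays. Of the 16 cochlear markers, 13 passed the signal filter, and Otos and Coch, of spiral ligament and limbus fibrocytes, both lay at the 99.2 percentile of brightness. The mean log2 signal of these 16 markers was 11.38 to 11.74 in CR, 10.48 to 10.72 in MC and 10.34 to 11.08 in YC samples. Of the hair cell genes, Myo7a and Otof passed the filter, at the 68.3 and 69.9 percentiles, and Slc26a5, of outer hair cells, did not, at the 22.3 percentile. For 14 skeletal muscle markers the range was 13.98 to 14.55 in CR, 15.97 to 16.59 in MC and 15.48 to 16.39 in YC samples, and for 12 brain markers it was 12.30 to 12.97 in CR, 11.18 to 11.44 in MC and 11.19 to 11.99 in YC samples. The 9 neutrophil and myeloid markers ran from 13.39 to 13.96 in CR, 13.55 to 14.46 in MC and 13.52 to 14.61 in YC samples. YC 1, the only control on a low-median array, lay on the CR side of all other controls for these tissues. It was at 11.08 for cochlear, 15.48 for muscle and 11.99 for brain markers. The muscle, brain and cochlear marker levels thus moved with the CR and MC labels and also with array class. A term for array class therefore cannot be told apart from these marker levels, and their part in the values below was not tested. In pooled tissue, fewer cells of a type and less RNA per cell cannot be told apart.

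Signals were analysed as log2(signal + 16) after quantile normalization, and limma was run over all 9 arrays on the 27022 probe sets whose mean log2 signal reached the 40th percentile. Of the 22 probe sets of the 9 genes, 15 passed this filter, covering all of the genes except Cdkn2a. None of the 15 passed an adjusted p of 0.05 between CR and MC, where 0.0925% of all tested probe sets did (25 of 27022), and none did between MC and YC, where the share over all tested probe sets was 0%. At an unadjusted p under 0.05 there were 3 of 15 between CR and MC, against 18.5% of all tested, and 0 of 15 between MC and YC, against 3.39%. Groups were fully separated in 5 of 15 between CR and MC, against 37.8% of all tested, and in 3 of 15 between MC and YC, against 5.88%. Both of these counts, and the 3 of 15 at an unadjusted p under 0.05, include Mdm2 1457929_at. Its place among the tested probe sets rests on its MC arrays, as given below, so these counts are a description only. The median log2 difference of the 15 was 0.30 for CR minus MC and 0.04 for MC minus YC, beside 0.08 and 0.02 over all tested probe sets. Over the 8 leads among them it was -0.09 for CR minus MC and 0.07 for MC minus YC, and over all 22 probe sets, 7 of them below the filter, 0.08 and 0.07. In the moderated F test over the 3 groups, 1 of the 15 had an unadjusted p under 0.05, against 11.9% of all tested. It was again Mdm2 1457929_at. None had an adjusted p under 0.05, against 0% of all tested. The median standard error of a log2 difference was 0.43, and the 3 pools a group limit the precision. Between CR and YC none of the 15 passed either (0% of all tested), and the groups did not overlap for 2 of 15, against 20.5% of all tested.

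**Figure D1:**
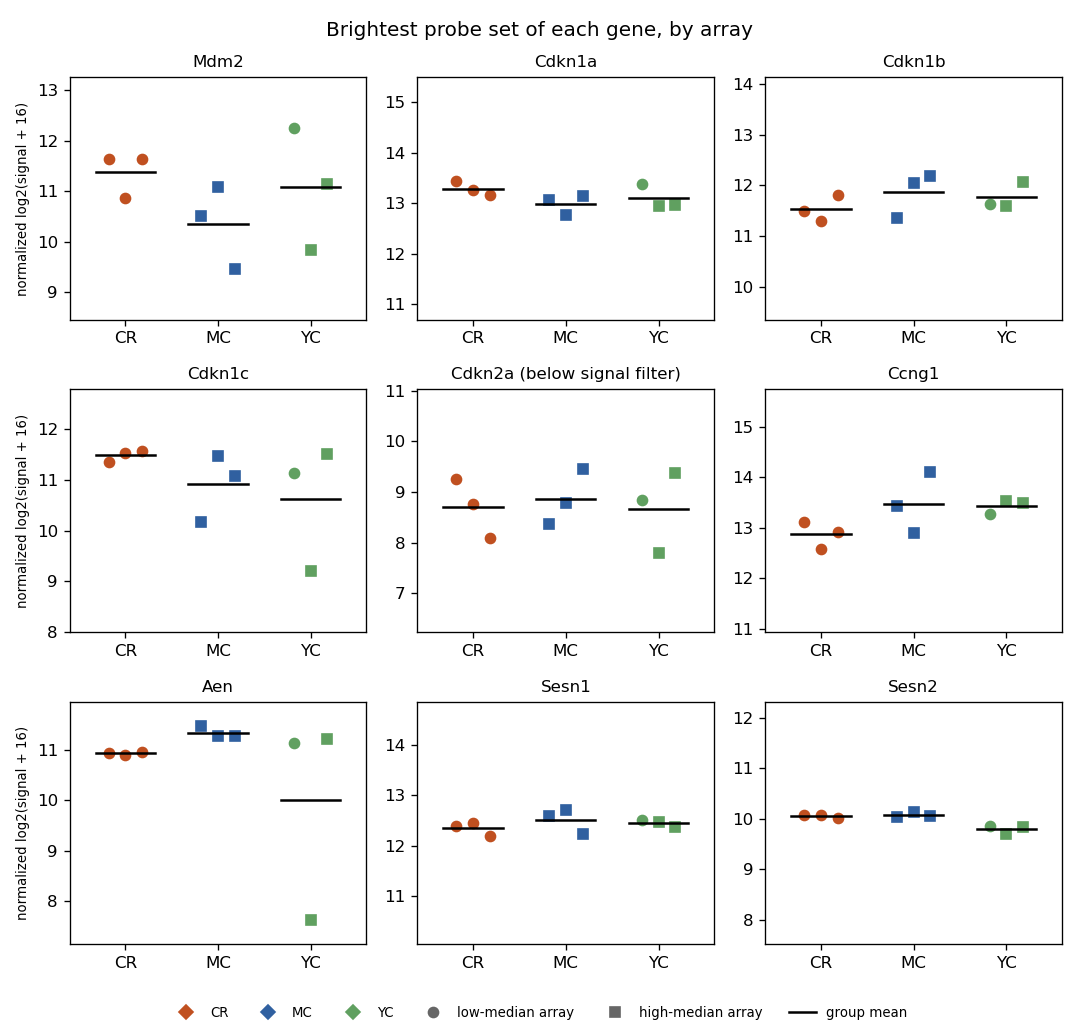
Normalized log2(signal + 16) of the brightest probe set of each of the 9 genes in every array (points), with group means (lines). Columns of each panel are CR, MC and YC, circles are low-median and squares high-median arrays, and every panel spans the same height on the log2 scale. Mdm2, Cdkn1c and Aen spread widely among the YC arrays, while Sesn2 and Sesn1 stayed within 0.42 and 0.51 log2 units over all 9 arrays.

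Among the cyclin-dependent kinase inhibitors, Cdkn1a is the classic p53 target. Its lead probe set (1424638_at; a lead is the probe set with the highest mean log2 signal of a gene) had normalized log2 signals of 13.43, 13.27 and 13.16 in the CR samples, 13.07, 12.75 and 13.13 in the MC samples and 13.38, 12.95 and 12.97 in the YC samples. All 3 CR values lay above all 3 MC values, by little, and YC 1 lay between CR 1 and CR 2. The log2 difference was 0.30 ± 0.20 for CR minus MC (SE, n = 3 each, limma adjusted p = 0.421, 95% interval -0.14 to 0.74) and -0.11 ± 0.20 for MC minus YC (adjusted p = 1, interval -0.55 to 0.32).

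On the deposited scale the contrast in Cdkn1a looked larger. The deposited signals were 13444.1, 11291.8 and 10521.1 in CR, 7605.4, 6725.4 and 7744.0 in MC and 13543.2, 5694.2 and 7760.9 in YC samples. The highest of the 9 was thus YC 1, a control on the unrestricted diet and the only control on a low-median array. The 4 low-median arrays ran from 10521.1 to 13543.2 and the 5 high-median arrays from 5694.2 to 7760.9, with no overlap. Without quantile normalization CR minus MC was 0.67 (adjusted p = 0.195), with arrays centred on their median 1.29 (adjusted p = 0.152), and in a model that held array class -0.12 (adjusted p = 1). Centring on the median shifted the median of all tested probe sets to 0.58 for CR minus MC. The shift differed among the members, however. The lead of Ccng1, at the 96.9 percentile of brightness, went from -0.60 to 0.37, and Sesn1 1444376_at, at the 53.4 percentile, from 0.19 to 0.20. The median of 0.58, here and below, is thus not matched to brightness, and whether Cdkn1a exceeded probe sets of like brightness was not tested. The second probe set of Cdkn1a (1421679_a_at) did not pass the filter, with deposited signals between 30.8 and 452.4.

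Cdkn1b was measured by 1434045_at at 11.53 ± 0.26 in CR, 11.86 ± 0.44 in MC and 11.77 ± 0.26 in YC samples (normalized log2, mean ± SD, n = 3 each). The groups overlapped, and the difference was -0.33 ± 0.28 for CR minus MC (limma adjusted p = 0.532) and 0.09 ± 0.28 for MC minus YC (adjusted p = 1). With arrays centred on their median the CR minus MC value turned to 0.40, below the shift of 0.58 of all tested probe sets in that setting. A second probe set, 1419497_at, was below the filter. The 95% interval for CR minus MC was -0.95 to 0.30.

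Cdkn1c, an imprinted gene whose product p57 restrains division during development, had 1 probe set (1417649_at). It lay at 11.49 ± 0.11 in CR, 10.91 ± 0.67 in MC and 10.62 ± 1.24 in YC samples. The CR samples sat close together and the controls were scattered, with MC 1 at 10.17 and YC 2 at 9.21. The difference was 0.58 ± 0.55 for CR minus MC (limma adjusted p = 0.565) and 0.29 ± 0.55 for MC minus YC (adjusted p = 1). Without YC 2 the MC minus YC value turned to -0.43, and with array class as a term CR minus MC was -0.19.

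Cdkn2a is widely used, through its p16Ink4a transcript, as a marker of cell senescence. Its only probe set (1450140_a_at) lay at the 35.9 percentile of brightness, below the filter, and was not tested. Its normalized log2 signal ran from 8.09 to 9.25 in CR, 8.37 to 9.46 in MC and 7.80 to 9.37 in YC samples. The 3 ranges overlapped broadly, and the means differed by -0.17 for CR minus MC and 0.20 for MC minus YC. Which of the 2 protein products the probes read was not determined here.

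Mdm2 was read by 3 probe sets that disagreed. The lead, 1423605_a_at, had normalized log2 signals of 11.38 ± 0.45 in CR, 10.35 ± 0.83 in MC and 11.08 ± 1.21 in YC samples, with overlap between all groups. Its difference was 1.03 ± 0.59 for CR minus MC (limma adjusted p = 0.358) and -0.72 ± 0.59 for MC minus YC (adjusted p = 1). With array class as a term CR minus MC was -0.74, and with the array median as a covariate -0.45. The second, 1427718_a_at, gave 0.72 ± 0.62 for CR minus MC (adjusted p = 0.532) and -0.63 ± 0.62 for MC minus YC (adjusted p = 1). Leaving out MC 3, which lay at 7.60 against 9.94 and 9.75 in the other MC samples, turned these to -0.035 and 0.12.

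The third, 1457929_at, went the other way and had the smallest p of all 15 probe sets. It is described because of that, and so was chosen after its values were seen. Its normalized log2 signals were 7.73, 8.35 and 8.22 in CR, 10.44, 9.99 and 10.04 in MC and 8.28, 9.07 and 9.80 in YC samples. All CR values lay below all MC values, and all MC values above all YC values. CR minus MC was -2.06 ± 0.52 (limma adjusted p = 0.146) and MC minus YC was 1.11 ± 0.52 (adjusted p = 1). In this probe set too YC 1 lay among the CR samples: deposited signals were 128.8 to 251.8 on the 4 low-median arrays and 784.0 to 1518.0 on the 5 high-median arrays. In the model with array class CR minus MC was -0.91 (adjusted p = 1). It passed the threshold when only CR and MC arrays were fitted (adjusted p = 0.033), as did 1846 of 27022 probe sets. With array weights it also passed (adjusted p = 0.0157), as did 3397. Its place among the tested probe sets rests on the MC arrays, however: its CR mean of 8.10 lay below the filter's cutoff of 8.95, its YC mean was 9.05 and its MC mean 10.16, and without MC 1 it was not tested. These p-values are therefore given as a description and support nothing. The mean of the 3 Mdm2 probe sets gave -0.10 for CR minus MC and -0.08 for MC minus YC, so no direction can be given for Mdm2 as a gene.

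**Figure D2:**
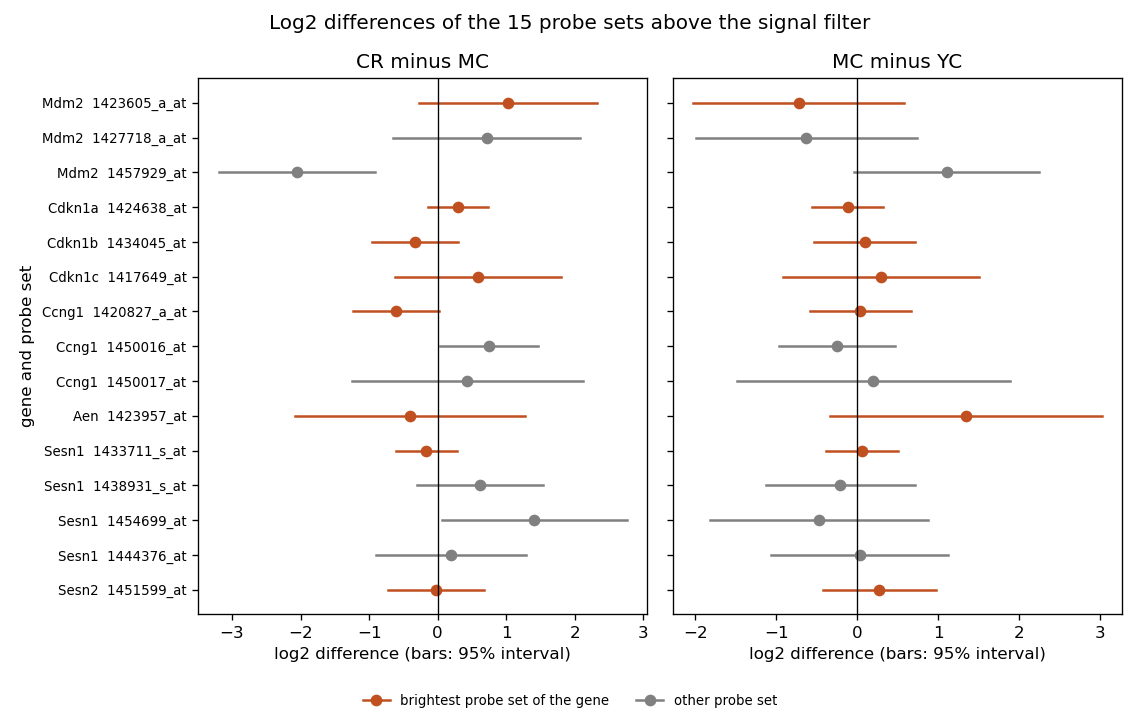
Log2 differences (points) with 95% intervals from limma (bars) for the 15 probe sets above the signal filter, CR minus MC on the left and MC minus YC on the right, the brightest probe set of each gene in orange and the others in grey. For CR minus MC the intervals of Mdm2 1457929_at, Ccng1 1450016_at and Sesn1 1454699_at leave out 0 before adjustment, and for MC minus YC every interval spans 0.

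Ccng1 encodes cyclin G1, a p53 target that recruits a phosphatase to Mdm2. Its lead probe set, 1420827_a_at, had normalized log2 signals of 13.12, 12.57 and 12.92 in CR, 13.42, 12.90 and 14.10 in MC and 13.27, 13.54 and 13.49 in YC samples. CR minus MC was -0.60 ± 0.28 (limma adjusted p = 0.283) with overlapping groups. CR minus YC was -0.56 ± 0.28 (adjusted p = 0.465), and here every CR value lay below every YC value, as in 9.10% of all tested probe sets. MC minus YC was 0.04 ± 0.28 (adjusted p = 1). With arrays centred on their median CR minus MC was 0.37 and CR minus YC 0.13, both below the shifts of 0.58 and 0.39 of all tested probe sets in that setting.

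The other Ccng1 probe sets pointed the opposite way between CR and MC. Probe set 1450016_at, named after its values were seen, had normalized log2 signals of 11.23, 11.52 and 11.18 in CR, 10.73, 10.73 and 10.23 in MC and 11.00, 10.23 and 11.21 in YC samples. Every CR value lay above every MC value, and YC 3 lay between CR 3 and CR 1. CR minus MC was 0.75 ± 0.33 (limma adjusted p = 0.258), and MC minus YC was -0.25 ± 0.33. The CR minus MC value kept its sign in all 21 alternatives tried, from 0.36 to 1.27, but these refit the same arrays or most of them. The highest came from centring on the median, which moved the median of all tested probe sets to 0.58. Probe set 1450017_at gave 0.43 ± 0.76 for CR minus MC (adjusted p = 0.77) and 0.20 ± 0.76 for MC minus YC (adjusted p = 1). The mean over the 3 probe sets was 0.19 for CR minus MC, against -0.60 for the brightest alone.

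Aen encodes an exonuclease that p53 induces and that takes part in apoptosis. The lead probe set, 1423957_at, had normalized log2 signals of 10.93, 10.90 and 10.95 in CR, 11.46, 11.27 and 11.28 in MC and 11.14, 7.64 and 11.22 in YC samples. The CR samples lay below all MC samples and the MC samples above all YC samples, and the whole spread among YC came from YC 2. CR minus MC was -0.41 ± 0.76 (limma adjusted p = 0.782) and MC minus YC 1.34 ± 0.76 (adjusted p = 1). Without YC 2 the MC minus YC value was 0.17 (adjusted p = 0.813), so its size rests on that array. Without YC 2 CR minus MC was -0.43 (adjusted p = 0.219). It moved to -2.12 in the model with array class (adjusted p = 1) and to -2.08 with the array median as covariate (adjusted p = 0.695), where MC minus YC was 1.91 and 1.92 (adjusted p = 0.826 and 0.479). The deposited signal of this probe set was 263.5 on YC 2 and 1827.0 to 2740.2 on the other arrays.

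Aen had 3 further probe sets, all below the filter and not tested. Of these, 1450506_a_at had the largest MC minus YC difference of the 22, with log2 means of 9.02 ± 0.66 in CR, 9.83 ± 0.57 in MC and 7.33 ± 0.75 in YC samples. Its deposited signals were 410.7, 238.9 and 590.5 in CR, 839.9, 1455.4 and 989.0 in MC and 126.8, 294.9 and 87.8 in YC samples. Every MC value lay above every YC value on both scales, and the group means differed by 2.50 on the normalized log2 scale. Every CR value also lay above every YC value on the normalized scale, with a difference of means of 1.69. On the deposited scale CR and YC overlapped. The probe set was named after its values were seen. The other pair, 1437373_at and 1451186_at, gave 0.31 and 0.60 for MC minus YC with overlapping groups.

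The sestrins Sesn1 and Sesn2 encode stress-induced proteins that restrain mTORC1 signalling, and both are p53 targets. The lead probe set of Sesn1, 1433711_s_at, was among the steadiest, with 12.35 ± 0.13 in CR, 12.51 ± 0.24 in MC and 12.46 ± 0.07 in YC samples. CR minus MC was -0.17 ± 0.20 (limma adjusted p = 0.654, 95% interval -0.61 to 0.28) and MC minus YC 0.06 ± 0.20 (adjusted p = 1, interval -0.39 to 0.50). By the array maker's naming, the suffix _s_at marks probes that can match more than 1 transcript. The sign of CR minus MC turned to 0.10 in the table as deposited and to 0.72 with arrays centred on their median. The median of all tested probe sets in that setting, 0.58, is not matched to the brightness of this probe set.

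The other 3 Sesn1 probe sets gave positive values for CR minus MC. The largest was in 1454699_at, named after its values were seen, with normalized log2 signals of 11.24, 11.38 and 11.30 in CR, 10.48, 10.37 and 8.84 in MC and 11.43, 8.97 and 10.71 in YC samples. CR lay above all MC samples, and YC 1 lay above all CR samples. CR minus MC was 1.41 ± 0.61 (limma adjusted p = 0.256), and MC minus YC was -0.47 ± 0.61 (adjusted p = 1). The 4 low-median arrays lay between 2416.6 and 2829.2 deposited units and the 5 high-median arrays between 593.7 and 1683.9. In the model with array class CR minus MC was -0.19 (adjusted p = 1). With array weights it passed the threshold at 1.16 (adjusted p = 0.0487), as did 3397 of 27022 probe sets. The estimate of those weights stopped before it converged. Probe set 1438931_s_at gave 0.62 ± 0.42 and 1444376_at 0.19 ± 0.50 for CR minus MC (adjusted p = 0.428 and 0.848). For MC minus YC the same probe sets gave -0.21 ± 0.42 and 0.03 ± 0.50 (adjusted p = 1 each).

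The lead probe set of Sesn2 (1451599_at) had the smallest range of the 22 probe sets, 0.42 over all 9 arrays. Its normalized log2 signals were 10.07, 10.07 and 10.02 in CR, 10.04, 10.13 and 10.05 in MC and 9.85, 9.71 and 9.84 in YC samples. Both 15-month groups lay above all YC samples, and CR and MC overlapped. Over all tested probe sets 11.4% were separated in this direction between CR and YC. MC minus YC was 0.27 ± 0.32 (limma adjusted p = 1), CR minus YC 0.25 ± 0.32 (adjusted p = 0.717) and CR minus MC -0.02 ± 0.32 (adjusted p = 0.976, 95% interval -0.72 to 0.68). These standard errors borrow the spread of probe sets of like brightness, and the SDs of the group values themselves were 0.03 in CR, 0.05 in MC and 0.08 in YC samples. On the deposited scale CR and MC did not overlap, with signals of 835.1 to 911.2 in CR, 1171.7 to 1268.3 in MC and 666.7 to 1177.9 in YC samples. In the table as deposited CR minus MC was -0.47 (adjusted p = 0.41), MC minus YC 0.40 and CR minus YC -0.07. CR and MC shared the YC samples in these comparisons. The other Sesn2 probe set (1425139_at) was below the filter, with deposited signals from 10.2 to 991.5.

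Of the 15 probe sets, 3 separated the low-median from the high-median arrays without overlap on the normalized scale: Cdkn1a 1424638_at and Sesn1 1454699_at, higher on low-median arrays, and Mdm2 1457929_at, lower there. Over all tested probe sets 21.9% did so. All CR arrays and YC 1 are low-median arrays, and all MC arrays are high-median arrays. By that definition these Cdkn1a, Mdm2 and Sesn1 probe sets also separate CR from MC, with YC 1 on the CR side. Of the 5 probe sets that separated CR from MC, the other 2 were Ccng1 1450016_at and Aen 1423957_at, in which the array classes overlapped.

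**Figure D3:**
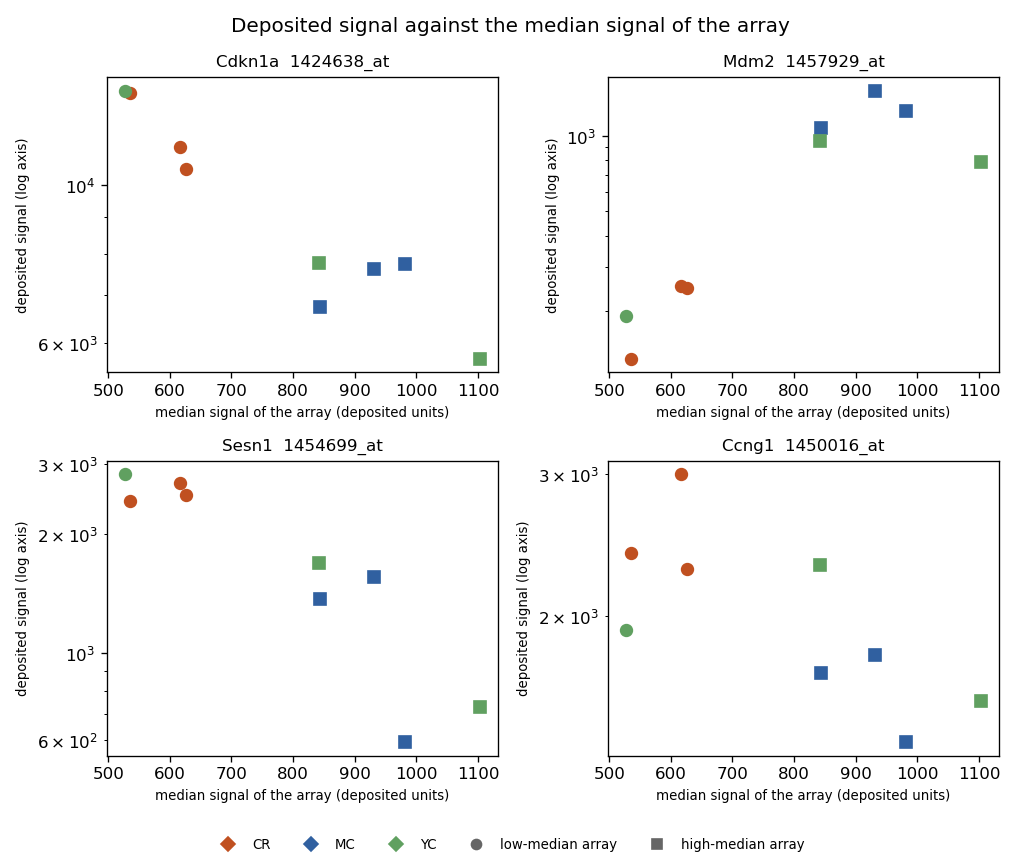
Deposited signal of 4 probe sets (vertical log axis) against the median deposited signal of the array (horizontal axis), 1 point per array, coloured by CR, MC and YC, with circles for low-median and squares for high-median arrays. In the panels of Cdkn1a, Mdm2 1457929_at and Sesn1 1454699_at the young control on a low-median array (526.8) sits with the 3 CR arrays and apart from the other 5 controls. Any probe set that separates the array classes does so by definition.

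Other genes of the pathway were read from 5 lists of 73 genes in all, of which 71 had a single-gene probe set and 66 a brightest probe set past the filter. None of the 66 passed the threshold in limma in either comparison. At an unadjusted p under 0.05 there were 8 between CR and MC, against 18.5% of all tested probe sets, and 3 between MC and YC, against 3.39%. Between CR and MC the samples were separated for 7 genes higher in CR, against 19.5% of all tested, and for 7 lower, against 18.2%. Between MC and YC these counts were 3 and 3, against 2.97% and 2.92%. For these genes only the brightest probe set was used. Beside the counts of higher and lower genes below, 54.7% of all tested probe sets were higher in CR than in MC. Between MC and YC, 52.3% were higher in MC.

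Of 17 regulators and partners of p53, 7 were higher and 10 lower in CR than in MC (median log2 difference -0.11), and 11 were higher and 6 lower in MC than in YC (median 0.11). Mdm4, the close relative of Mdm2 that masks the activation domain of p53, had a CR minus MC difference of -0.89 ± 0.25 (limma adjusted p = 0.171). It passed with only the CR and MC arrays fitted (adjusted p = 0.0436), as did 1846 of 27022 probe sets. Over the alternatives its difference ranged from -0.99 to -0.35. Ppp1r13l, which encodes the inhibitor iASPP, followed at -0.46 ± 0.24 (adjusted p = 0.322). With age, Kat5, an acetyltransferase of p53 and histones, differed by 0.52 ± 0.23 and Hipk2, a kinase that phosphorylates p53, by 0.44 ± 0.24 (adjusted p = 1 each).

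Among p53 targets for arrest, repair and metabolism, 12 of 20 were higher and 8 lower in CR than in MC (median 0.19), and 9 were higher and 11 lower in MC than in YC (median -0.02). Phlda3, a repressor of Akt signalling, differed by -0.87 ± 0.26 and Zmat3, an RNA-binding zinc finger protein, by 1.23 ± 0.37 between CR and MC (limma adjusted p = 0.174 and 0.176). These well-established targets thus lay on opposite sides. Zmat3 passed with only the CR and MC arrays fitted (adjusted p = 0.0476), as did 1846 of 27022 probe sets. Over the alternatives its CR minus MC difference ranged from 0.49 to 1.63. With age, Btg2, an antiproliferative gene, differed by 0.53 ± 0.30 and Zmat3 by -0.53 ± 0.37 (adjusted p = 1 each).

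Only 7 of the 12 p53 targets of the cell death list passed the filter, 6 of them higher and 1 lower in CR than in MC (median 0.20), and 3 higher and 4 lower in MC than in YC (median -0.07). Cyfip2, a partner of the fragile X protein FMRP, differed by 1.01 ± 0.27 between CR and MC (limma adjusted p = 0.156), and Perp, a membrane protein of cell junctions, by 0.44 ± 0.34 (adjusted p = 0.482). Cyfip2 passed with only the CR and MC arrays fitted (adjusted p = 0.0214), as did 1846 of 27022 probe sets. It also passed without YC 2 (adjusted p = 0.0326), as did 1147. Over the alternatives its CR minus MC difference ranged from 0.27 to 1.93. Brain markers were higher in the CR samples as well, as given above, and their part in the Cyfip2 value was not tested. With age, Dram1, a lysosomal membrane protein of autophagy, differed by -0.76 ± 0.29 and Apaf1, the scaffold of the apoptosome, by 0.49 ± 0.33 (adjusted p = 1 each).

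**Figure D4:**
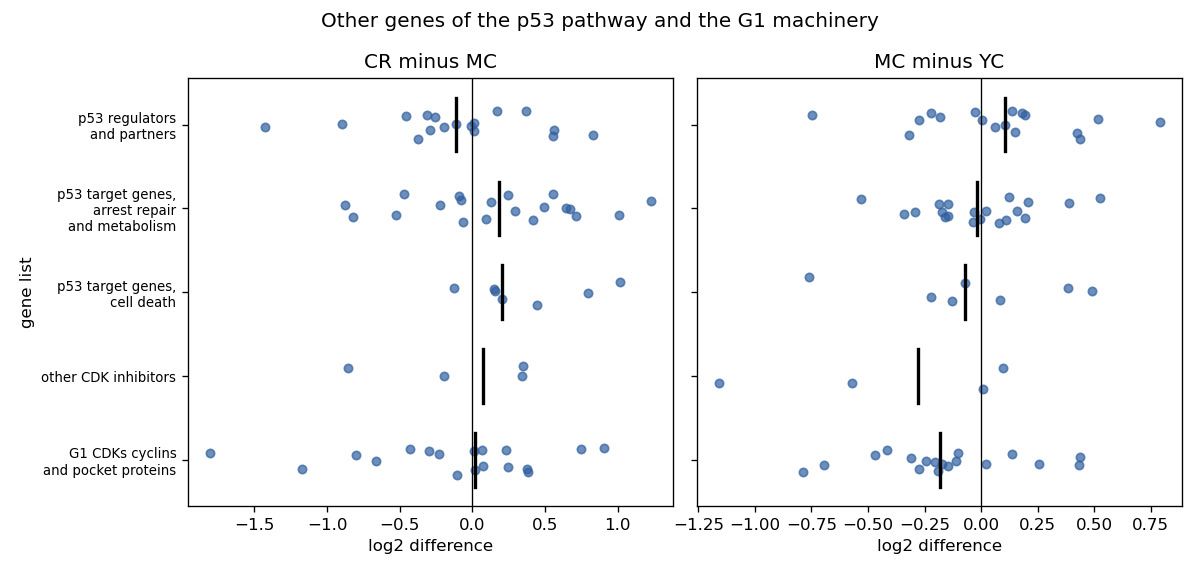
Log2 differences of the 66 list genes past the signal filter, 1 point per gene by its brightest probe set, with the median of each list as a black bar, CR minus MC on the left and MC minus YC on the right. List medians lie between -0.11 and 0.20 for CR minus MC and between -0.28 and 0.11 for MC minus YC, and points fall on both sides of 0 in every list.

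The 4 other inhibitors of the list were split 2 and 2 between CR and MC and between MC and YC (medians 0.07 and -0.28). All 4 lay lower in CR than in YC (median -0.50), 2 of them without overlap, against 9.10% of all tested probe sets. Other lists were uneven between CR and YC as well. In the cell death list 6 genes were higher and 1 lower in CR (median 0.36), with 4 separated as higher and 1 as lower. In the G1 list, described next, 4 were higher and 14 lower (median -0.31). The regulators had 10 higher and 7 lower, and the arrest and repair targets 13 and 7. Of all tested probe sets 54.7% were higher in CR than in YC. Over all 66 list genes, 8 were separated as higher and 7 as lower in CR than in YC, against 11.4% and 9.10% of all tested. Between CR and MC, Cdkn3, a phosphatase that acts on Cdk2, differed by -0.86 ± 0.58 and Cdkn2d (p19Ink4d), which in mice keeps hair cells out of the cell cycle, by 0.34 ± 0.28 (limma adjusted p = 0.426 and 0.509). With age, Cdkn2b (p15Ink4b) differed by -1.16 ± 0.52 and Cdkn2d by -0.57 ± 0.28 (adjusted p = 1 each). All 3 MC values of Cdkn2d lay below all YC values, as in 2.92% of all tested probe sets.

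The G1 list held 18 genes, for G1 kinases, their cyclins, pocket proteins and E2F factors, with Skp2 and Cks1b. Of these, 10 were higher and 8 lower in CR than in MC (median 0.02). Between MC and YC, 5 were higher and 13 lower in MC (median -0.18). E2f5, a repressive E2F factor, differed by -1.80 ± 0.45 between CR and MC (limma adjusted p = 0.146), and Rbl2, the pocket protein p130, by 0.91 ± 0.40 (adjusted p = 0.262). E2f5 passed with only the CR and MC arrays fitted (adjusted p = 0.0106), without YC 1 (0.0288) and without YC 2 (0.0258). In these settings 1846, 209 and 1147 of 27022 probe sets passed. In the model with array class the CR minus MC difference of E2f5 was 0.033 (adjusted p = 1). With age, the D-type cyclin gene Ccnd2 differed by -0.47 ± 0.30 and E2f2 by -0.79 ± 0.51 (adjusted p = 1 each). The 7 markers of dividing cells had mean log2 signals of 11.26 to 11.98 in CR, 11.89 to 12.32 in MC and 11.68 to 12.46 in YC samples.

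Genes with a profile like that of Ccng1 and of Aen, whose lead probe sets had the smallest F test p, were sought among all tested single-gene probe sets. Likeness was the mean absolute log2 difference over the 9 arrays after centring each profile on its own mean. Closest to Ccng1 were Ybx3 (0.11), Ndrg2 (0.11) and Mfn1 (0.11), where the median over all others was 0.56. Closest to Aen were Tnfaip1 (0.13), Tspan18 (0.14) and Ckap4 (0.14), against a median of 0.78. The named genes were picked as the smallest distances, so they lie below the median by that choice. Whether they are closer than the nearest genes of any other profile was not tested. The 9 points of each profile share the same arrays, and the lowest point of the Aen profile is YC 2.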

How the data were processed

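Whole cochleae were profiled on 1-colour arrays with biotin-labelled cRNA made from TRIzol-extracted RNA, per the labels' protocols. The deposited values are linear intensity signals, and GCOS 1.3 is named in the submitters' processing notes. The signal algorithm, detection calls and scaling target were not stated by any source used here. Probe sets carried 1 symbol in 34945 cases, several in 932 and none here in 9160, and 34741 of the single symbols were brought up to date by gene ID from RefSeq (GRCm38.p6). Signals were transformed to log2(signal + 16), quantile normalized because array medians differed, and filtered at the 40th percentile of mean log2 signal. Group means of all 9 arrays were fitted in limma 3.58.1 under R 4.3.3 (lmFit, eBayes with a variance trend), and p was adjusted by Benjamini-Hochberg over 27022 probe sets. The test was run on simulated data first. The members and lists were chosen with earlier results of these data known. All members are named, with their brightest probe set leading. Members whose lead groups did not overlap in CR minus MC or MC minus YC are given sample by sample, and Ccng1, separated in CR minus YC, was added after its values were seen. As no list gene passed the threshold, the 2 of smallest p in each list and comparison are named. The p-values measure the spread between these pools of 2 mice each. Alternatives changed the pseudocount, filter, scaling, variance model, array weights, arrays fitted, replicate block, array class and probe set rule, and left out each array in turn.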

Additional observations from a re-analysis of the deposited data

How the results depend on the processing

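Across 52 gene results and 1127 alternative values, 1039 kept direction and side of the threshold, 73 turned sign and 15 newly passed. The cause was not tested. CR minus MC calls over all probe sets (25, with 4% higher in CR) became 0 with arrays centred on their median, 7 as deposited (14.29% higher), 0 without a variance trend, 3397 with array weights, 1846 with only those groups fitted, 0 with array class and 0 with the array median as a term. Leaving out 1 array gave 0 to 1147: 0 without CR 2, CR 3, MC 1 or MC 3, 2 without CR 1, 49 without MC 2, 209 without YC 1 and 1147 without YC 2. Member probe sets called were 2 with array weights and 1 with only those groups fitted, and 0 to 0 leaving out 1 array. CR minus YC calls ranged from 0 to 328 (328 without YC 1). F test calls were 1 without a filter, 1 as deposited and 1027 with array weights (1 of them a member), and 0 to 50 leaving out 1 array (15 without MC 2, 50 without YC 1, 35 without YC 2, 8 without YC 3). MC minus YC kept 0 calls in limma (915 at an unadjusted p under 0.05). Mdm2 1457929_at missed the filter without MC 1. The array weight estimate stopped before it converged, and with it Mdm4, Phlda3, Zmat3, Cyfip2 and E2f5 passed the threshold for CR minus MC. The array class term for CR minus MC rests on YC 1.

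Same-numbered samples had correlations of deviations from -0.29 to 0.27. Samples of different number were not compared in this way, so the values do not settle whether the numbers pair samples. The fit with the replicate block called 0 probe sets for CR minus MC (4632 at an unadjusted p under 0.05).

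Signs turned as follows. Centring on the median gave CR minus MC values of 0.40 for Cdkn1b, 0.37 for Ccng1, 0.18 for Aen, 0.72 for Sesn1, 0.15 for Sesn2, 0.35 for Ppp1r13l and 0.070 for Phlda3 (median of all tested 0.58), MC minus YC values of -0.18 for Cdkn1b, -0.021 for Cdkn1c, -0.24 for Ccng1, -0.061 for Ccng1 1450017_at and -0.21 for Sesn1 (median -0.15), and 0.13 for CR minus YC of Ccng1. As deposited, CR minus MC was 0.10 for Sesn1 and -0.41 for Sesn1 1444376_at, MC minus YC -0.023 for Ccng1 and -0.00036 for Sesn1, and CR minus YC -0.070 for Sesn2. With array class, CR minus MC was -0.74 for Mdm2, -0.12 for Cdkn1a, -0.19 for Cdkn1c, -1.0 for Ccng1 1450017_at, -0.58 for Sesn1 1438931_s_at, -0.19 for Sesn1 1454699_at, -0.40 for Perp, 0.033 for E2f5 and -0.29 for Rbl2, and MC minus YC, the same within high-median arrays, 0.025 for Cdkn1a, -0.042 for Ccng1, 0.19 for Sesn1 1438931_s_at, 0.057 for Sesn1 1454699_at and -0.33 for Sesn1 1444376_at. With the array median as covariate, CR minus MC was -0.45 for Mdm2, -0.35 for Cdkn1c, -1.07 for Ccng1 1450017_at and -0.30 for Perp, and MC minus YC -0.039 for Ccng1, 0.00067 for Sesn1 1438931_s_at, 0.0037 for Sesn1 1454699_at and -0.20 for Sesn1 1444376_at. Averaging probe sets gave CR minus MC of -0.10 for Mdm2, 0.19 for Ccng1 and 0.51 for Sesn1, MC minus YC of -0.0046 for Ccng1 and -0.15 for Sesn1, and CR minus YC of 0.19 for Ccng1. Array weights gave MC minus YC of -0.043 for Ccng1. Leaving out 1 array, CR minus MC ranged from -0.038 to 0.0045 for Sesn2, -0.035 to 1.14 for Mdm2 1427718_a_at, -0.11 to 0.94 for Ccng1 1450017_at and -0.039 to 0.54 for Sesn1 1444376_at. MC minus YC ranged from -0.85 to 0.75 for Ccng1 1450017_at, -0.19 to 0.024 for Cdkn1a, -0.070 to 0.35 for Cdkn1b, -0.040 to 0.20 for Sesn1, -0.50 to 0.19 for Sesn1 1438931_s_at, -0.32 to 0.41 for Sesn1 1444376_at, -1.05 to 0.12 for Mdm2 1427718_a_at, -0.27 to 0.33 for Ccng1, -1.21 to 0.057 for Sesn1 1454699_at and -0.43 to 0.75 for Cdkn1c.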
